A study of Homo sapiens with 6 samples.

Results

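Wnt signalling was examined in HEK293 cells with and without the transcription factor STAT5B, through 48 genes for the pathway's ligands, receptors, cytoplasmic machinery, nuclear effectors, inhibitors and feedback targets. The genes are components and targets of the pathway, were found by symbol, and all 48 were present among the 60609 gene identifiers measured. HEK293 is an established human embryonic kidney cell line. The 2 groups were 3 libraries of HEK293 cells labelled wild type and 3 libraries of HEK293 cells labelled as STAT5B knockouts, with no agent given in the labels of either. Sample names of both groups carry the word Sham, which the labels leave unexplained. The knockouts were made with CRISPR/Cas9, and clones in which both STAT5B alleles were mutated were picked by sequencing and Western blot. How many clones stand behind the 3 knockout libraries is not stated, so a difference between clones and the loss of STAT5B cannot be told apart. The labels say that experiments were run in triplicate but not that the cultures were separate, so p-values measure the spread between these libraries, which may be technical.

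Wnt proteins are secreted lipid-modified ligands that bind Frizzled receptors on the cell surface. In the canonical branch, Frizzled acts with LRP5 or LRP6 and with Dishevelled to block a complex of Axin, APC and kinases that otherwise marks beta-catenin for destruction, and beta-catenin then works with TCF and LEF proteins at target genes. Other branches run through RYK and ROR receptors, and several targets, among them AXIN2, NKD1, RNF43, ZNRF3 and NOTUM, feed back to restrain the signal.

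The libraries held 17494958 to 21099813 estimated counts, and the 2 groups overlapped in depth. Of 11 HEK293-associated genes, 10 were at 1 TPM (a level scaled by transcript length and library) or more in every library. Their summed level was 1077 to 1107 TPM in the wild type and 949 to 967 TPM in the knockout, with no overlap. NEFM alone was at 222 to 238 against 90.0 to 106 TPM, and without it the sums overlapped, at 848 to 875 and 844 to 877 TPM. Of the 11 genes, 2 were higher (VIM and EYA1) and 3 lower (NEFM, SALL1 and CDH2) in the knockout in edgeR, and the part of these differences in the results below was not tested. Markers of other cell types were low: 3 of 6 haematopoietic, 2 of 5 endothelial and 4 of 7 mature kidney markers were at 0 in every library. The haematopoietic sum was 1.54 to 2.16 TPM in the wild type and 1.12 to 2.63 TPM in the knockout, and the endothelial sum was 0.071 to 0.335 and 0.039 to 0.104 TPM. The fibroblast markers summed to 5.64 to 6.41 and 5.39 to 7.43 TPM, most of it from COL1A1. Without COL1A1 they summed to 0.474 to 0.833 TPM in the wild type and 0.199 to 1.75 TPM in the knockout. The kidney markers summed to 9.75 to 12.1 and 8.64 to 11.8 TPM, nearly all of it from LRP2. In bulk RNA, fewer cells of a kind and less RNA per cell cannot be told apart. STAT5B itself was at 70.1, 64.6 and 69.4 CPM (counts scaled by library size) in the wild type and at 63.1, 61.8 and 60.5 CPM in the knockout. Its log2 difference was −0.14 (SE 0.047; edgeR quasi-likelihood test, adjusted p = 0.0468), and a two-sided exact permutation test gave p = 0.1, the smallest that 3 against 3 libraries allow. Its call was lost in 12 of the 15 alternative settings, so the level of this RNA does not check the genotype labels.

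Promoter sequences help to place the results below, and the RefSeq table for GRCh38.p14 held 46 promoters of 35 of the genes, matched by symbol. Each spans 250 bases before to 50 bases after a start site. They were searched on both strands for TTCNNNGAA, the letters of the STAT5 consensus, which read the same on either strand, and for CTTTGAT and CTTTGAA, letters of the sites that TCF and LEF proteins bind. TTCNNNGAA was in 3 of the 46 promoters (6.52%) and in 7.66% of all 35116 promoters of that length. Either TCF/LEF pattern was in 2 of 46 (4.35%) and in 6.86% of all promoters. The TTCNNNGAA matches were in promoters of APC, ROR1 and TCF7L2, and of these genes only APC passed the test between genotypes described below. The TCF/LEF patterns were in SP5, which held 3 matches, and in DKK1, both textbook targets of the pathway. No promoter was held for the textbook targets AXIN2, NKD1, ZNRF3, LGR5 and NOTUM, so these were not searched. The same was true of LRP6, WNT11, FZD2, FZD3, FZD6, FZD7, DKK3 and SFRP1. The 250 upstream bases are shown for APC and SP5, which hold matches, and for LGR4 and RYK, which changed between genotypes and hold none. They lie at chr5:112707248-112707497 (plus strand, the first of 2 APC starts listed), chr2:170715087-170715336 (plus strand), chr11:27472791-27473040 (minus strand) and chr3:134250860-134251109 (minus strand). Capitals mark the matches, and in SP5 the matches on the opposite strand read TTCAAAG.
APC: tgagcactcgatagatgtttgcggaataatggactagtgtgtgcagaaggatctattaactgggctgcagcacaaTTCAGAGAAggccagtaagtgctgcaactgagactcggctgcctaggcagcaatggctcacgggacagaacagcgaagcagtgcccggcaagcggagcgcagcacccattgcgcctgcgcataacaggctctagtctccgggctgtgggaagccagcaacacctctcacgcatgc
SP5: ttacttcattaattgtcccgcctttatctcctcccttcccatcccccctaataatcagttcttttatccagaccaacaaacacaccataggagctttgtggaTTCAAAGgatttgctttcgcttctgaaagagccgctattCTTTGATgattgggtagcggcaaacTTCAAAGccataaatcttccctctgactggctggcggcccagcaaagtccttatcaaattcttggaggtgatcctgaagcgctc
LGR4: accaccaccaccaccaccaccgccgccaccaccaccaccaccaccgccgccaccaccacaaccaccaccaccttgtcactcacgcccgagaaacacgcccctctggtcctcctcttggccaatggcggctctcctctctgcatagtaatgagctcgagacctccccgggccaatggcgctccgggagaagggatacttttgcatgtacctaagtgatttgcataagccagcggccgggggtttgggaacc
RYK: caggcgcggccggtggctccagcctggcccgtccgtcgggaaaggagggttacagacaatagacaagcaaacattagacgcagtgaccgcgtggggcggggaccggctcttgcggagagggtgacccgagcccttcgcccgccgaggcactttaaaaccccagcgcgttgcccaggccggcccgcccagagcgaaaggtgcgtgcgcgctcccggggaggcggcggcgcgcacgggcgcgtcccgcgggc
A match describes letters in a window and was not examined as a binding site.

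Levels between genes were compared in TPM. In the wild type, 26 of the 48 genes had a mean of 10 TPM or more, 18 were between 1 and 10 TPM and 4 were below 1 TPM. CTNNB1, which encodes beta-catenin, stood highest at 299.9 ± 9.64 TPM (SD, n = 3). It was followed by the kinase CSNK1A1 at 144.9 ± 0.995 TPM (37.4% of its exon bases overlap another annotated gene on the same strand), the ligand carrier WLS at 132.7 ± 1.37 TPM and the kinase GSK3A at 102.4 ± 2.70 TPM (11.6% overlap), and none of these 4 overlapped the gene next in order. From PYGO2 (44.9 TPM) through LEF1, DVL1 and GSK3B to DVL3 (39.2 TPM) the libraries of neighbouring genes overlapped, and so did every neighbouring pair from ZNRF3 (14.4 TPM) down to NKD1 (1.35 TPM). At the low end stood the Wnt deacylase NOTUM (0.558 TPM), the APC paralogue APC2 (0.314 TPM), SP5 (0.243 TPM) and WNT6 (0.133 TPM).

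**Figure D1:**
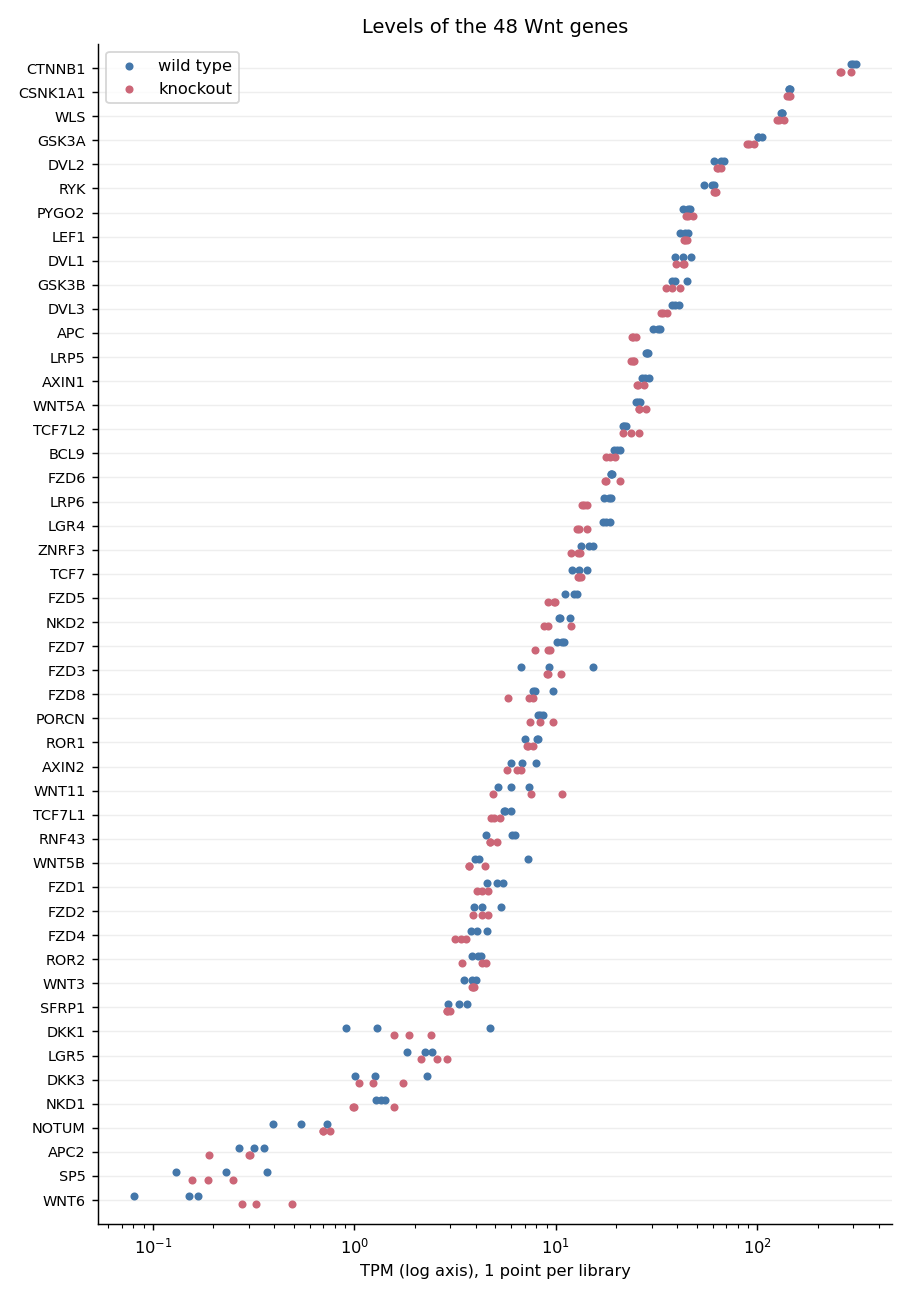
TPM (log axis) of the 48 Wnt genes in each of the 3 wild-type and 3 knockout libraries, 1 point per library, ordered by wild-type mean. CTNNB1 is highest at about 299.9 TPM in the wild type, and 4 genes lie below 1 TPM.

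The genotypes were then compared gene by gene with edgeR's quasi-likelihood test on rounded estimated counts, with p-values adjusted over all 15958 genes tested and a threshold of 0.05. Over all genes, 23.4% passed (12.1% higher and 11.4% lower in the knockout). Of the 48 Wnt genes, 45 had enough counts to be tested, while WNT6, NOTUM and SP5 did not. Among the 45, 3 rose in the knockout (WNT5A, RYK and DVL2), 6 fell (FZD5, LRP5, LRP6, DVL3, APC and LGR4) and 36 did not pass. That share, 20%, is near the 23.4% over all genes. The median log2 difference was −0.0087 over the 45 genes and 0.0063 over all genes. Libraries of the 2 genotypes did not overlap for 14 of the 45 genes (31.1%), against 38.6% of all genes tested. These were the 9 that passed, together with PYGO2 on the higher side and FZD3, FZD7, GSK3B and TCF7L2 on the lower side. By direction these were 4 higher, against 19.9% of all genes, and 10 lower, against 18.7% of all genes. With DESeq2 in place of edgeR, 3 rose and 5 fell, and with length and GC offsets (fitted per library) in edgeR, 5 rose and 4 fell.

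**Figure D2:**
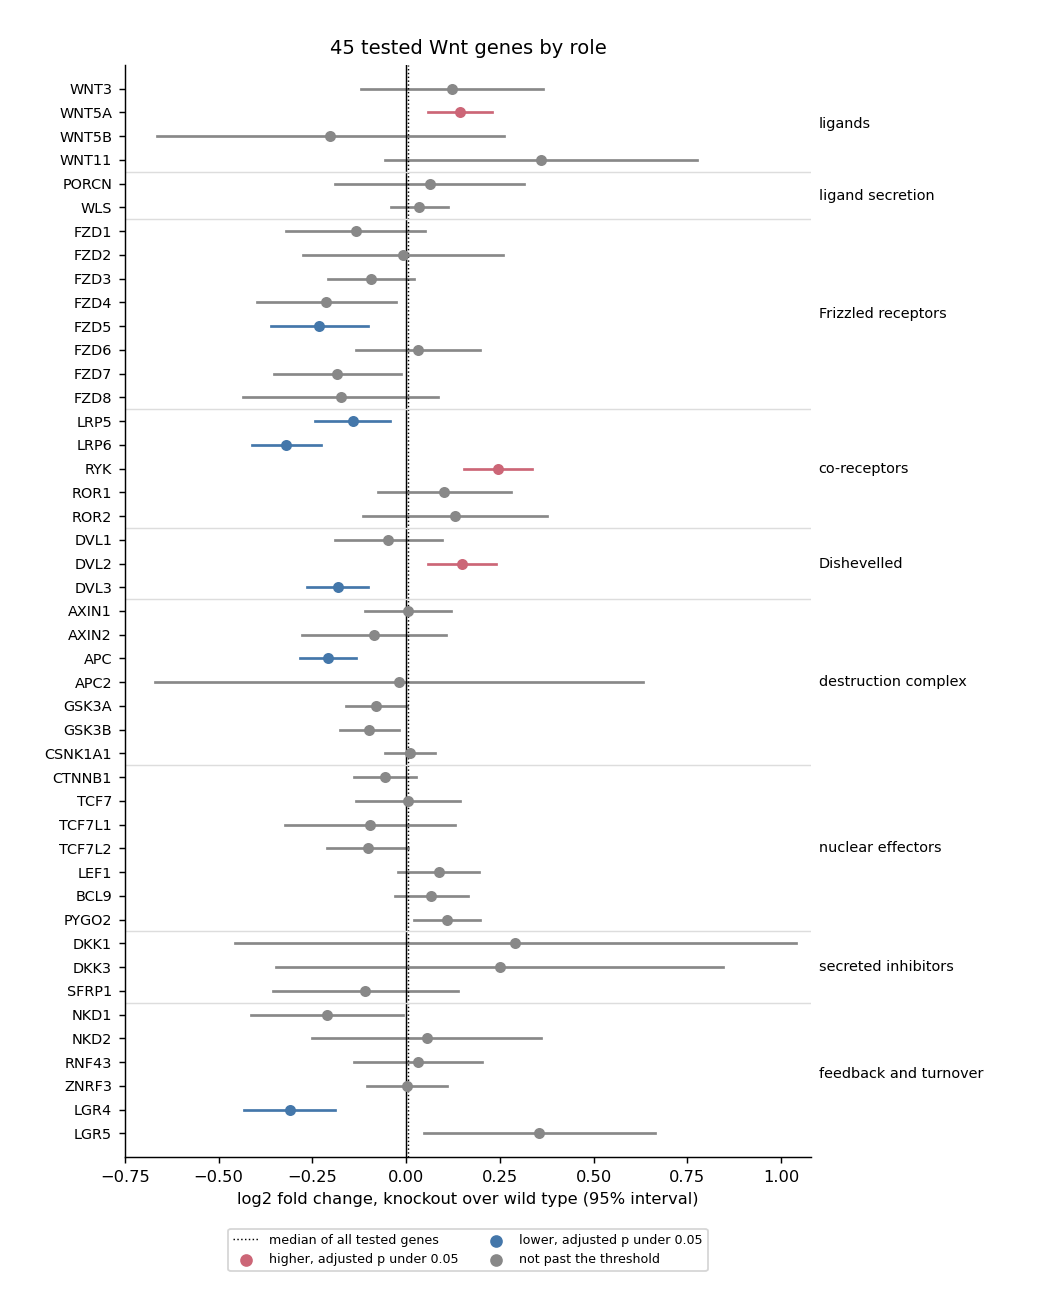
Log2 difference, knockout minus wild type, of the 45 tested Wnt genes grouped by role, with 95% confidence intervals from edgeR; coloured points passed the adjusted threshold of 0.05. The 9 that passed lie between −0.32 (LRP6) and 0.25 (RYK).

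Of 4 tested ligand genes, 1 passed (25%, against 23.4% of all genes). WNT5A, a ligand known mainly for signalling outside the beta-catenin branch, was at 78.8, 77.1 and 77.1 CPM in the wild type and at 83.4, 86.7 and 87.1 CPM in the knockout. All 3 knockout libraries lay above all 3 wild-type libraries. The mean rose from 77.7 ± 0.994 to 85.8 ± 2.02 CPM (SD, n = 3), which is a log2 difference of 0.14 (SE 0.039; edgeR adjusted p = 0.017). On log2(TPM + 1) the WNT5A difference was 0.055 and did not pass (limma adjusted p = 0.624), and it was 0.13 with effective-length offsets (edgeR adjusted p = 0.161). Its edgeR call was also lost without wild-type library 2 (adjusted p = 0.0669), wild-type library 3 (0.0639) or knockout library 2 (0.0535). Of the other ligands, WNT3, WNT5B and WNT11 had log2 differences of −0.20 to 0.36 and did not pass, the smallest adjusted p in edgeR being 0.206. WNT6 had 2, 1 and 2 counts in the wild type, against 6, 4 and 4 in the knockout, or 5 against 14 in sum, too few to be tested. The 2 genes of ligand secretion, PORCN, which attaches the lipid, and WLS, which carries the ligand to the surface, did not pass: their log2 differences were 0.062 and 0.035. Neither passed at an unadjusted p of 0.05 in edgeR, nor with DESeq2 or with limma on log2(TPM + 1).

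Frizzled genes encode the receptors, and 1 of 8, FZD5, passed the test (12.5%, against 23.4% of all genes). Libraries did not overlap between genotypes for 3 of the 8 (37.5%, against 38.6% of all genes). Point estimates were below 0 for 7 of the 8, against 7766 of all 15958 genes, with a median log2 difference of −0.15. With length and GC offsets 5 of the 8 were below 0 and the median was −0.054, and without knockout library 1 the median was −0.097. FZD5 was at 49.4, 47.4 and 43.2 CPM in the wild type and at 37.7, 40.9 and 40.5 CPM in the knockout. The groups did not overlap. Its mean fell from 46.6 ± 3.17 to 39.7 ± 1.74 CPM (SD, n = 3), which is a log2 difference of −0.23 (SE 0.061; edgeR adjusted p = 0.0134). Its call was lost on log2(TPM + 1) in limma (−0.30, adjusted p = 0.0854), with effective-length offsets (edgeR adjusted p = 0.0572) and with length and GC offsets, which brought it to −0.10 (edgeR adjusted p = 0.234). It was also lost without wild-type library 1 (edgeR adjusted p = 0.0649), wild-type library 2 (0.0524) or knockout library 1 (0.061). The other 7 receptors had log2 differences of −0.21 (FZD4) to 0.032 (FZD6), with adjusted p of at least 0.0932 in edgeR; the libraries of FZD3 and FZD7 did not overlap between genotypes. The summed TPM of the 8 receptors was 79.7, 74.4 and 68.6 in the wild type, against 61.9, 66.0 and 69.3 in the knockout, so the sums overlapped. FZD3 contributed much of that spread, at 15.4, 9.27 and 6.71 TPM in the wild type alone. Its wild-type counts were closer, at 50.4, 46.4 and 46.2 CPM, while its deposited length was 6605, 10131 and 13764 bases. The overlap of the sums thus depended on how long FZD3 was taken to be.

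LRP5 and LRP6, the single-pass co-receptors that pass the canonical signal to Axin, both fell. LRP6 was at 92.5, 102 and 95.1 CPM in the wild type and at 77.2, 77.8 and 77.2 CPM in the knockout. The 3 knockout libraries were nearly equal, and all lay below the lowest wild-type library. The mean fell from 96.5 ± 4.86 to 77.4 ± 0.328 CPM (SD, n = 3), which is a log2 difference of −0.32 (SE 0.043; edgeR adjusted p = 1.34e-04), or 19.8% lower. LRP6 passed in all 15 alternative settings, at −0.39 to −0.18 on the log2 scale. The lowest size, −0.18, came with length and GC offsets (edgeR adjusted p = 0.00582). The deposited length of LRP6, averaged over the libraries, is 9035 bases, and its longest annotated transcript has 40.2% GC.

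LRP5 was at 72.7, 69.6 and 71.0 CPM in the wild type and at 62.7, 62.8 and 67.9 CPM in the knockout. Knockout library 3 came nearest to the wild type, and the groups did not overlap. Its mean fell from 71.1 ± 1.55 to 64.5 ± 3.02 CPM (SD, n = 3), which is a log2 difference of −0.14 (SE 0.047; edgeR adjusted p = 0.040). This call held in the fewest settings of the 9. It was lost with DESeq2 (−0.15, adjusted p = 0.0626), with effective-length offsets (−0.17, edgeR adjusted p = 0.0612), with length and GC offsets (−0.038, edgeR adjusted p = 0.567), and without wild-type library 1, 2 or 3 or knockout library 1 or 2 (edgeR adjusted p = 0.0694 to 0.138). A partial copy, LRP5L, was at 3.89 to 5.45 CPM, and how reads were shared between them is not stated in the labels. Summed over LRP5 and LRP6, the level was 45.9, 47.3 and 46.6 TPM in the wild type and 37.8, 37.3 and 38.7 TPM in the knockout. Each of the 2 genes was already called lower and did not overlap in TPM. The sum therefore could not overlap either and adds no separate evidence. On log2(TPM + 1) the median difference of all genes was itself −0.059.

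RYK, a kinase-dead co-receptor for Wnt ligands outside the LRP pair, moved the other way. It was at 79.2, 77.2 and 83.7 CPM in the wild type and at 95.1, 96.9 and 92.6 CPM in the knockout. The lowest knockout library stood above the highest wild-type one. The mean rose from 80.1 ± 3.32 to 94.9 ± 2.18 CPM (SD, n = 3), which is a log2 difference of 0.25 (SE 0.042; edgeR adjusted p = 8.33e-04). The deposited effective length of RYK was 2177 to 2316 bases in the wild type, against 2330 to 2390 bases in the knockout. With effective-length offsets the difference was 0.15 (edgeR adjusted p = 0.142), and on log2(TPM + 1) it was 0.077 (limma adjusted p = 0.414). ROR1 and ROR2, receptor kinases for WNT5A, had log2 differences of 0.10 and 0.13 and did not pass in edgeR (adjusted p = 0.414 and 0.456).

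**Figure D3:**
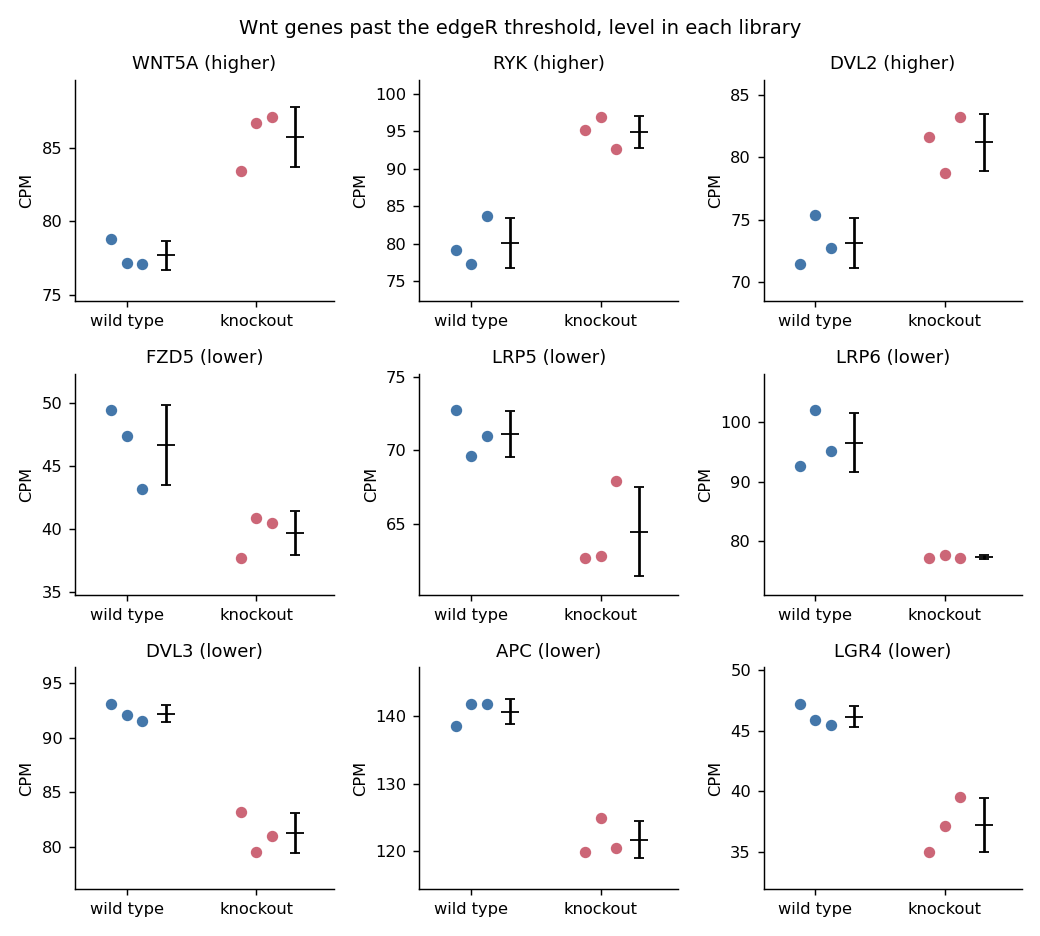
CPM of the 9 Wnt genes that passed edgeR's test, 1 point per library, wild type beside knockout, with the group mean. In each panel the 3 knockout libraries lie wholly above (WNT5A, RYK, DVL2) or wholly below (the other 6) the wild-type libraries.

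Dishevelled proteins relay the signal from Frizzled, and their genes split. DVL3 was at 93.0, 92.0 and 91.5 CPM in the wild type and at 83.2, 79.5 and 81.0 CPM in the knockout. The wild-type libraries were nearly equal, and the groups did not overlap. The mean fell from 92.2 ± 0.789 to 81.3 ± 1.85 CPM (SD, n = 3), which is a log2 difference of −0.18 (SE 0.038; edgeR adjusted p = 0.00333). The call was lost with effective-length offsets (−0.12, edgeR adjusted p = 0.171) and on log2(TPM + 1) (limma adjusted p = 0.0806). With length and GC offsets it was −0.11 (edgeR adjusted p = 0.0445).

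DVL2 was at 71.4, 75.4 and 72.7 CPM in the wild type and at 81.6, 78.7 and 83.3 CPM in the knockout, again with no overlap. The mean rose from 73.2 ± 2.0 to 81.2 ± 2.30 CPM (SD, n = 3), which is a log2 difference of 0.15 (SE 0.042; edgeR adjusted p = 0.020), but it did not pass on log2(TPM + 1), at −0.011 (limma adjusted p = 0.913). That value is below 0 but above the median of all genes on that scale, −0.059. It was not called with effective-length offsets (0.055, edgeR adjusted p = 0.601), or without wild-type library 1 (0.098) or 3 (0.0676) or knockout library 1 (0.0579) or 3 (0.0588). The neighbourhood of DVL2 on chromosome 17 was higher as a whole: its 50 nearest tested genes, over 1.29 Mb, had a median log2 difference of 0.21, with 21 higher and 0 lower in edgeR. Over all genes, 12.1% were higher and 11.4% lower. The part of this neighbourhood in the DVL2 value was not tested. DVL1 had a log2 difference of −0.047 (edgeR adjusted p = 0.667). The ratio of DVL2 to DVL3 in TPM was 1.49, 1.69 and 1.81 in the wild type, against 1.86, 1.90 and 1.88 in the knockout. In TPM the DVL2 means were 65.0 in the wild type and 64.5 in the knockout, and the DVL3 means 39.2 and 34.3. The ratio thus moved mainly with DVL3. It joins 2 genes called in opposite directions and adds no separate evidence.

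**Figure D4:**
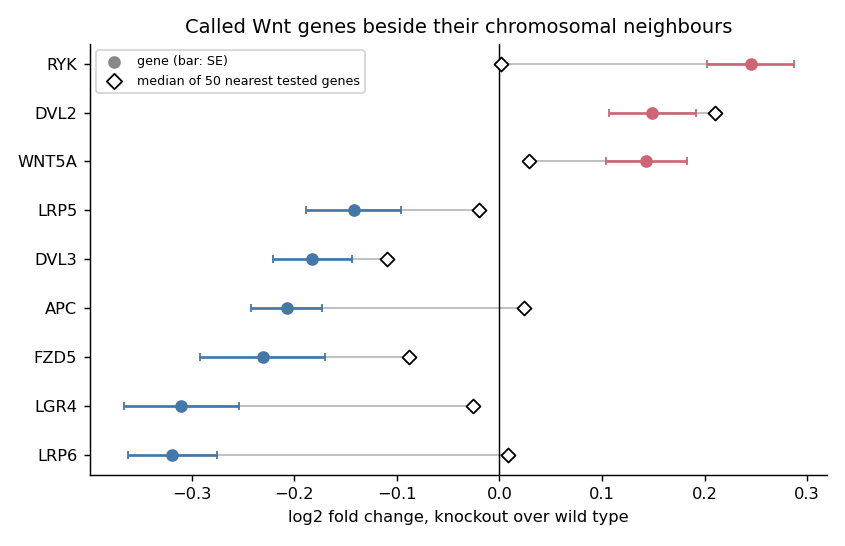
Log2 difference (horizontal axis), knockout minus wild type, of the 9 Wnt genes that passed, in rows by gene. Dots with SE bars show the gene, and open diamonds the median of its 50 nearest tested genes. The diamond of DVL2 lies farthest to the right, at 0.21, while those of LRP6, APC and RYK lie between 0.0017 and 0.024.

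Position was examined in the same way for the other genes that passed, which lie on hg38 (GENCODE release 29) at chr12:12116025-12267012 (LRP6), chr5:112707498-112846239 (APC), chr3:134065303-134250744 (RYK), chr3:55465715-55490539 (WNT5A), chr11:68312609-68449275 (LRP5), chr11:27365961-27472775 (LGR4), chr2:207762586-207769563 (FZD5) and chr3:184155311-184173614 (DVL3). DVL2 lies at chr17:7225341-7234545. The medians of the 50 nearest genes were 0.0082 for LRP6, 0.024 for APC, 0.0017 for RYK, 0.029 for WNT5A, −0.020 for LRP5, −0.026 for LGR4, −0.089 for FZD5 and −0.11 for DVL3. Thus the neighbourhoods of FZD5 and DVL3 were themselves lower, with 11 and 12 of 50 genes lower and 4 and 1 higher in the knockout. The shares over all genes were 11.4% lower and 12.1% higher. Chromosome 1 was higher as a whole, with a median of 0.149 and 564 genes higher against 76 lower of 1574 tested. It carries 5 of the Wnt genes, WLS, ROR1, DVL1, BCL9 and PYGO2, and none of these passed in edgeR (1 at an unadjusted p under 0.05, and 0 with DESeq2 or with limma on log2(TPM + 1)). The medians of the 50 nearest genes were 0.16 for WLS, 0.12 for ROR1, 0.16 for BCL9 and 0.18 for PYGO2. For DVL1 the median was −0.12, with 0 of its 50 nearest genes higher and 7 lower.

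In the destruction complex, which marks beta-catenin for degradation, 1 of 7 genes passed and was lower (14.3%, against 23.4% of all genes). APC, the scaffold of the complex, was at 139, 142 and 142 CPM in the wild type and at 119.9, 125 and 120.5 CPM in the knockout. The groups were separated by more than the spread within either. The mean fell from 141 ± 1.83 to 122 ± 2.76 CPM (SD, n = 3), which is a log2 difference of −0.21 (SE 0.034; edgeR adjusted p = 6.19e-04). APC passed in all 15 alternative settings, but its size moved from −0.10 with length and GC offsets (edgeR adjusted p = 0.0445) to −0.38 on log2(TPM + 0.1) (limma adjusted p = 0.0126). Exons of APC overlap another annotated gene over 1.85% of their length. Its promoter shown above holds the TTCNNNGAA letters 175 bases before the start, as 7.66% of all promoters hold them somewhere in the window. The promoter at the other APC start listed holds no match. The other 6 members, AXIN1, AXIN2, APC2, GSK3A, GSK3B and CSNK1A1, had log2 differences of −0.098 to 0.011 with adjusted p of at least 0.0736 in edgeR. The lowest of these p-values belonged to the kinase GSK3B, whose libraries did not overlap and which passed without knockout library 2 (edgeR adjusted p = 0.0446).

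Nuclear effectors gave no call among 7 genes in edgeR (1 at an unadjusted p under 0.05, PYGO2), against 23.4% of all genes tested. None passed with DESeq2 or with limma on log2(TPM + 1). CTNNB1 was at 537, 516 and 523 CPM in the wild type and at 478, 507 and 531 CPM in the knockout. The knockout libraries spread widely and overlapped the wild type. The log2 difference of CTNNB1 was −0.057 (95% interval −0.139 to 0.026; edgeR adjusted p = 0.322). LEF1 was at 49.0, 47.0 and 50.3 CPM against 52.0, 53.5 and 49.8 CPM, and TCF7 at 21.4, 22.1 and 21.5 CPM against 22.2, 21.4 and 21.7 CPM. Both overlapped between genotypes, with log2 differences of 0.087 (95% interval −0.022 to 0.195) and 0.0062 (−0.132 to 0.145). TCF7L1 and TCF7L2, the other TCF genes, had log2 differences of −0.096 and −0.10 and did not pass in edgeR (adjusted p = 0.562 and 0.16). PYGO2, a co-activator with BCL9, had a log2 difference of 0.11 (edgeR adjusted p = 0.0708). With length and GC offsets PYGO2 and BCL9 both passed (edgeR adjusted p = 0.0142 and 0.0263). Both lie on chromosome 1, where the medians of their 50 nearest genes were 0.18 and 0.16 in the main fit.

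Receptor turnover and feedback genes numbered 6, and 1 passed (16.7%, against 23.4% of all genes). LGR4, a receptor for R-spondins, which protect Frizzled from removal, was at 47.2, 45.9 and 45.4 CPM in the wild type and at 35.0, 37.2 and 39.5 CPM in the knockout. Every knockout library lay below every wild-type library. The mean fell from 46.2 ± 0.905 to 37.2 ± 2.25 CPM (SD, n = 3), which is a log2 difference of −0.31 (SE 0.056; edgeR adjusted p = 0.00121), or 19.4% lower. LGR4 passed in all 15 alternative settings, at −0.41 to −0.26. Its paralogue LGR5, a stem cell marker, was at 4.68, 5.61 and 5.02 CPM in the wild type and at 5.57, 7.201 and 6.80 CPM in the knockout. These groups overlapped, and the log2 difference of 0.36 (95% interval 0.048 to 0.664) did not pass (edgeR adjusted p = 0.090), though it did without knockout library 1 (edgeR adjusted p = 0.0461). The TPM ratio of LGR4 to LGR5 was 10.2, 7.86 and 7.03 in the wild type, against 5.96, 4.49 and 5.56 in the knockout.

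Of the 48 genes, 10 are textbook targets of beta-catenin (AXIN2, LEF1, TCF7, NKD1, RNF43, ZNRF3, LGR5, SP5, NOTUM and DKK1), and 8 of these were tested. None of the 8 passed in edgeR, against 23.4% of all genes, and 8 genes are too few to tell those shares apart. At an unadjusted p under 0.05 in edgeR, 1 was higher and 1 lower, against 2882 higher and 2725 lower of 15958 genes. None of the 8 passed with DESeq2 or with limma on log2(TPM + 1). Their median log2 difference was 0.019, with a range of −0.21 to 0.36. AXIN2 was at 12.3, 11.7 and 12.5 CPM in the wild type and at 11.9, 10.7 and 11.9 CPM in the knockout, a log2 difference of −0.086 (95% interval −0.278 to 0.107). Those groups overlapped. ZNRF3, a ubiquitin ligase that removes Frizzled, was at 50.3, 49.1 and 48.8 CPM against 50.5, 47.4 and 50.5 CPM. Its relative RNF43 was at 14.7, 16.7 and 15.5 CPM against 16.0, 15.6 and 16.3 CPM. The log2 difference was 0.0022 (95% interval −0.104 to 0.108) for ZNRF3 and 0.032 (−0.139 to 0.203) for RNF43. Exons of RNF43 overlap other annotated genes over 57.6% and 20.3% of their length, and those of AXIN2 over 25.2%, and how such reads were assigned is not stated in the labels. NKD1, a Dishevelled inhibitor, was at 14.2, 13.6 and 11.96 CPM in the wild type and at 12.04, 11.3 and 10.9 CPM in the knockout, with a log2 difference of −0.21 (95% interval −0.414 to −0.009; edgeR adjusted p = 0.125). The knockout library 1 of NKD1 overlapped the lowest wild-type library. Its relative NKD2 had a log2 difference of 0.055 (edgeR adjusted p = 0.822).

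None of 3 tested secreted inhibitors passed in edgeR (0 at an unadjusted p under 0.05, and 0 with DESeq2 or with limma on log2(TPM + 1)). The share over all genes in edgeR was 23.4%. DKK1, which blocks LRP5 and LRP6, had 21, 30 and 17 counts in the wild type, against 18, 44 and 21 in the knockout, with a log2 difference of 0.29 and a wide 95% interval of −0.457 to 1.038. SP5, a target transcription factor whose promoter holds 3 TCF/LEF patterns, had 2, 6 and 4 counts against 3, 3 and 4. NOTUM had 7, 9 and 11 against 10, 9 and 11. SP5 and NOTUM had too few counts to be tested. DKK3 and SFRP1 had log2 differences of 0.25 and −0.11 and did not pass in edgeR (adjusted p = 0.566 and 0.545).

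**Figure D5:**
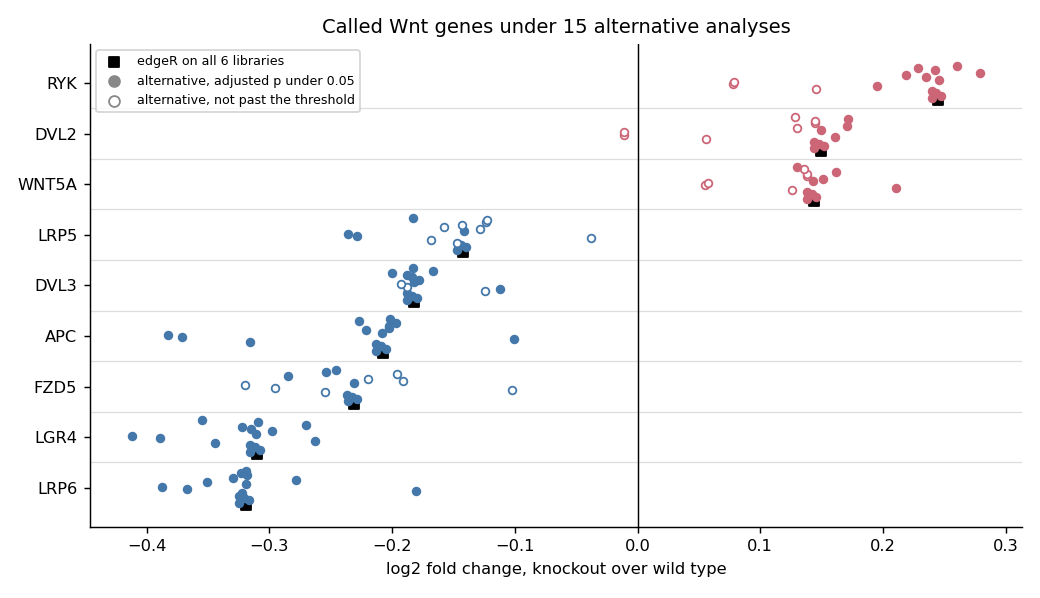
Log2 difference, knockout minus wild type, of the 9 Wnt genes that passed, in the edgeR fit on counts and 15 alternative settings, with filled points where the gene passed. LRP6, APC and LGR4 stay past the threshold in all 15, and DVL2 lies at −0.011 in both TPM settings, where the medians of all genes are −0.059 and −0.067.

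Across the 15 alternative settings, LRP6, APC and LGR4 kept their calls in all 15, RYK and DVL3 in 12, WNT5A in 9, DVL2 and FZD5 in 8 and LRP5 in 7. The 3 calls that held everywhere were all lower in the knockout. On log2(TPM + 1), 4 of the 45 genes were lower and 0 higher, and over all genes the share of calls that were higher was 30.1% there against 51.4% in the edgeR fit on counts.

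The rest of the pathway was taken from a list of 142 further genes, of which 107 were tested. Of these, 10 rose and 20 fell (28%, against 23.4% of all genes), with a median log2 difference of −0.024. With length and GC offsets the balance turned, to 17 higher and 11 lower. None of 6 tested ligands and R-spondins passed in edgeR (1 higher at an unadjusted p under 0.05, and 0 with DESeq2 or with limma on log2(TPM + 1)). Among 9 surface partners, GPC3, a glypican that binds Wnt ligands, was at 56.8, 58.1 and 53.2 CPM in the wild type and at 74.5, 81.4 and 74.1 CPM in the knockout. Its log2 difference was 0.46 (edgeR adjusted p = 3.67e-05), and it passed in all 15 alternative settings. KREMEN1, a DKK receptor, fell by 0.20 (edgeR adjusted p = 0.00824). SOSTDC1, an inhibitor, rose from 1.33 to 2.34 CPM in mean (log2 difference 0.81, edgeR adjusted p = 0.0338), but passed in only 6 of the 15.

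In the planar polarity branch, which steers cell orientation, 2 of 14 genes rose and 3 fell (35.7%, against 23.4% of all genes). VANGL2 and PRICKLE3 rose by 0.33 and 0.41 on the log2 scale, while the cadherins CELSR1 and CELSR3 fell by 0.25 and 0.33 and SCRIB fell by 0.20 (edgeR adjusted p = 4.03e-04 to 0.0312). VANGL2 lies on chromosome 1, where the median of its 50 nearest genes was 0.23. Of 26 cytoplasmic regulators, 1 rose and 5 fell (23.1%, against 23.4% of all genes). The deubiquitinase USP34 fell from 218 to 174 CPM in mean and the tankyrase TNKS2, which marks Axin for degradation, from 108 to 85.7 CPM, log2 differences of −0.33 each (edgeR adjusted p = 2.11e-05 and 3.05e-05). TNKS, the other tankyrase, fell by 0.22 and CCDC88C by 0.24, and PPP2R5A, on chromosome 1, rose by 0.20 (edgeR adjusted p = 8.95e-04, 0.0099 and 0.00581). Of 19 nuclear partners, 2 rose and 6 fell (42.1%, against 23.4% of all genes). The acetyltransferases EP300 and CREBBP, co-activators of beta-catenin, fell by 0.33 and 0.23, the kinase HIPK2 fell by 0.38, TBL1XR1 fell by 0.15 and CTBP2 rose by 0.14 (edgeR adjusted p = 1.77e-05 to 0.0127). With DESeq2, 2 polarity genes rose and 3 fell, against 1 and 5 cytoplasmic regulators and 1 and 6 nuclear partners. On log2(TPM + 1) in limma, 0 rose in any of these 3 lists. There 1 polarity gene, 3 cytoplasmic regulators and 5 nuclear partners fell, and over all genes 488 rose and 1135 fell.

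Of 26 tested textbook targets outside the 48 genes, 3 rose and 5 fell (30.8%, against 23.4% of all genes). CCND1, the cyclin D1 gene, was at 22.6, 21.5 and 21.0 CPM in the wild type and at 13.2, 14.98 and 12.6 CPM in the knockout. The groups did not overlap, and the log2 difference was −0.67 (edgeR adjusted p = 6.81e-05). JUN was at 206, 179 and 249 CPM against 378, 290.3 and 338 CPM, with a log2 difference of 0.66 (edgeR adjusted p = 2.98e-04). JUN lies on chromosome 1, where the median of its 50 nearest genes was 0.15. SOX4, ID2 and TBX3 fell by 0.25, 0.25 and 0.19 (edgeR adjusted p = 3.03e-04, 5.62e-04 and 0.00705). CCND1, JUN, SOX4 and ID2 passed in all 15 alternative settings. These genes are also known as targets of other pathways.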

How the data were processed

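The 6 libraries came from 3 wild-type and 3 STAT5B knockout HEK293 samples, grouped by the genotype label. Per the submitters' processing notes, FastQC, fastp, DRAGEN, Picard and the build hg38 were used. The annotation release and the use of strand were not given in the sources used here. A length, effective length, TPM and estimated count per gene stand in every deposited file, per the file headers. For 7.12% to 7.64% of genes the deposited estimated counts were not whole, and they were rounded. The TPM values deposited by the authors were used for levels and for 2 alternatives. Names were matched for 60340 of 60609 identifiers, and positions came from GENCODE release 29.

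Counts were tested with edgeR 4.0.16 in R 4.3.3 (filterByExpr with a minimum count of 10 and a minimum total of 15, TMM scaling, quasi-likelihood F test) with Benjamini-Hochberg adjustment over 15958 genes; 44651 were not tested. The biological coefficient of variation was 4.43%. CPM are on TMM-scaled library sizes, intervals are 95%, and the fit was tested on simulated data. The alternatives were RLE scaling, no filter, a filter of 1 CPM in 3 libraries, DESeq2 1.42.0, effective-length offsets, limma 3.58.1 on log2(TPM + 1) and log2(TPM + 0.1), leaving out each library, and a block for the replicate number. Offsets for mean length and GC content were chosen after seeing the data. The 48 genes, the further lists and the tests were chosen with earlier results of these data known. Values in each library are given for genes that passed and for CTNNB1 and the textbook targets; in further lists all genes that passed were named up to 5, otherwise the 5 with the smallest p. PYGO2, BCL9, GSK3B, the Frizzled genes and others named outside this rule were chosen after their values were seen.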

Additional observations from a re-analysis of the deposited data

How the results depend on the processing

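Of the 9 calls, those of LRP6, APC and LGR4 held in all 15 alternatives. With effective-length offsets 0 of the Wnt genes rose and 3 fell, with length and GC offsets 5 rose and 4 fell, and on log2(TPM + 1) and log2(TPM + 0.1) 0 rose and 4 fell. DVL2 was at −0.0113 and −0.0114 there, above the medians of all genes, −0.0587 and −0.0671. Among further pathway genes, 4 rose and 12 fell with effective-length offsets, 17 and 11 with length and GC offsets, and 2 and 13 on either TPM scale. Over all genes, 891 rose and 844 fell with offsets from effective length, 1736 and 1572 with length and GC offsets, 488 and 1135 on log2(TPM + 1), and 483 and 1139 on log2(TPM + 0.1). Leaving out 1 library gave 1 to 3 Wnt genes higher and 4 to 6 lower, 7 to 10 and 15 to 20 further genes, and 1339 to 1789 and 1279 to 1786 of all genes. The STAT5B difference did not pass without the filter (−0.1358), with DESeq2 (−0.1436), effective-length offsets (−0.2389), length and GC offsets (−0.0981), or on the TPM scales (−0.2951 and −0.3043), and was −0.1746 to −0.1196 with 1 library left out. The cause of these shifts was not tested.

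Replicate numbers were checked for pairing, and deviations of same-numbered libraries of the 2 genotypes correlated at 0.00375, 0.104 and 0.0415. Those of differently numbered libraries correlated at −0.098 to 0.0519, and not every library correlated best with its own number. No pairing was assumed in the main fit, and values this small cannot exclude it. With the replicate number as a block, 3 Wnt genes rose and 6 fell, further genes numbered 11 and 19, all genes 1887 and 1773, and STAT5B was −0.1373 (edgeR adjusted p = 0.0554). WNT6, NOTUM and SP5 had too few counts to be tested, and the interval of DKK1 is wide.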

Other observations

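Gene lengths were examined after seeing the data. The length that the deposited files give for a gene differed between libraries for 38 of the 45 tested Wnt genes. It did not overlap between genotypes for 8 of them (17.8%), against 10.5% of all genes tested. Of the 8, 4 were longer in the knockout (RYK, ROR2, APC2 and BCL9) and 4 shorter (DVL1, DVL3, CSNK1A1 and TCF7L2). TCF7L2, a nuclear effector with many known splice forms, had lengths of 3486, 3679 and 3520 bases in the wild type and 3208, 2876 and 2690 bases in the knockout. Its counts gave a log2 difference of −0.10, and with effective-length offsets it was 0.17, and neither passed in edgeR (adjusted p = 0.16 and 0.177). How the length was averaged over transcripts is not stated, and lengths were not tested between genotypes.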
